A study of Mus musculus with 15 samples.

Results

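The levels of 9 genes of sarcolemma repair were followed in dystrophic muscle and heart: the annexins Anxa1, Anxa2, Anxa4, Anxa5, Anxa6, Anxa7 and Anxa11, dysferlin (Dysf) and Trim72, which encodes the protein MG53. They were taken by name from the 56980 genes of the deposited RNA-seq table. All 15 mice carried the DBA/2J-mdx genotype, which lacks dystrophin, so every group including the controls was dystrophic. The tibialis anterior muscle (TA) was taken at 5 months of age from 4 mice given dasatinib and quercetin (D+Q), a senolytic pair, and from 4 mice given vehicle, by gavage 2 times per week for 2 months from the age of 3 months. The heart was taken at 16 months from 3 mice given D+Q and 4 given vehicle, 2 times per week for 4 months from the age of 12 months. Values are TPM, a level corrected for transcript length and scaled to the same total in each library. A level in bulk tissue does not tell apart fewer cells of a type from less RNA per cell.

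A tear in the plasma membrane of a muscle fibre lets calcium in, and the repair machinery responds to that calcium within the fibre. Annexins bind acidic phospholipids in a calcium-dependent way and gather as a cap at the wound edge, while dysferlin, a calcium-binding membrane protein, and MG53, a TRIM-family protein, bring vesicles that patch the gap. Without dystrophin the membrane tears more easily, and Anxa6 is known as a modifier of muscular dystrophy in mice.

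The positions given here are those of GENCODE M39 on GRCm39. Anxa1, also known for limiting inflammation, lies on chromosome 19 from 20350792 to 20368374 on the minus strand. Anxa2, which pairs with S100a10 and links membranes to actin, lies on chromosome 9 from 69360542 to 69399077 on the plus strand. Anxa4 lies on chromosome 6 from 86713675 to 86771064 on the minus strand, and Anxa5, which forms ordered arrays on torn membrane, on chromosome 3 from 36503072 to 36530126 on the minus strand. The Anxa6 gene, whose product carries a duplicated annexin core, spans 54869654 to 54924305 of chromosome 11 on the minus strand. Anxa7, named for its role in membrane fusion, and Anxa11, which binds the calcium sensor ALG-2, both lie on chromosome 14, from 20505328 to 20530201 on the minus strand and from 25842547 to 25887229 on the plus strand. Dysf spans 83985345 to 84188042 of chromosome 6 and Trim72 spans 127603062 to 127611190 of chromosome 7, both on the plus strand. A lncRNA on the opposite strand, Gm15533, shares 676 exonic bases with Trim72, which is 20.6% of its exonic length, and another, Gm44036, shares 753 bases or 12.2% with Anxa4. Whether strand was used in the quantification is not given in the sources used here, so such reads could not be told apart from those of the gene. A gene-level TPM also joins all splice forms, of which GENCODE lists 39 transcripts for Anxa6.

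The start regions of 4 of these genes are shown because Anxa1, Anxa11 and Anxa2 differed most between TA and heart and Trim72 was the member with the opposite sign. Each runs 5′ to 3′ from 250 bases before to 50 bases after the RefSeq start site on GRCm38.p6, and capitals mark matches on either strand to the TATA box (TATAAA), to the GC box that Sp1-type factors bind (GGGCGG) and to the E-box of myogenic and other basic helix-loop-helix factors (CANNTG). The regions are chr19:20390622-20390921, minus strand, for Anxa1, chr9:69453433-69453732, plus strand, for Anxa2, chr14:25841905-25842204, plus strand, for Anxa11, and chr7:128004128-128004427, plus strand, for Trim72.
Anxa1: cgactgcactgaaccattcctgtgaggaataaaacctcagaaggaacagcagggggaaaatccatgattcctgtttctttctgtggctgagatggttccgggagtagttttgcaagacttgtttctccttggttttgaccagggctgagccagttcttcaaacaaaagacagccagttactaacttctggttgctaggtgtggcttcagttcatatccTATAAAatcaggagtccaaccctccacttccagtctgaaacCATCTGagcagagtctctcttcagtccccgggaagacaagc
Anxa2: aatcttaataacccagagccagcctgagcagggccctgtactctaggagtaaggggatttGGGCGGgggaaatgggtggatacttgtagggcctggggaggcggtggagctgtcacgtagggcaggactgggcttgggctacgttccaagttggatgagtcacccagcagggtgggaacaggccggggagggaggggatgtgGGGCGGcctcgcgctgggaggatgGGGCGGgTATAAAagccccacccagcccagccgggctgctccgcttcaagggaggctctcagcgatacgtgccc
Anxa11: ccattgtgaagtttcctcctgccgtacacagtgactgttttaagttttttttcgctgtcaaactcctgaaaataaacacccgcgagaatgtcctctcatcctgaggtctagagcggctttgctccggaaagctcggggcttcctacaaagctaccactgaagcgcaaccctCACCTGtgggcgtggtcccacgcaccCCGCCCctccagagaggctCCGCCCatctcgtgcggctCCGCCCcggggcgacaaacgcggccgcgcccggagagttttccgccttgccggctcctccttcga
Trim72: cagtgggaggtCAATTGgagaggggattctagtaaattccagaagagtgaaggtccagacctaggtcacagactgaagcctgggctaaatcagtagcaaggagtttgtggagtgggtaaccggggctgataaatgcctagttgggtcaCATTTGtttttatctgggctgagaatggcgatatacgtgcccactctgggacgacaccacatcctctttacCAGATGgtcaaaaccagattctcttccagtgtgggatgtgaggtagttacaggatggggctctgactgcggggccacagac
Anxa1 and Anxa2 held TATAAA, beginning 32 and 17 bases before the start, while the other members with a region in the table did not, and 13.6% of all 32851 regions held it. Anxa2 and Anxa11 each held GGGCGG at 3 places, a motif present in 35.7% of all regions, and Trim72 and Anxa1 had none. Trim72 held 3 E-boxes and Anxa1 and Anxa11 held 1 each, and 72.3% of all regions held at least 1. These matches are a description of the letters in the window. RefSeq regions were found for 8 of the 9 members, and none for Anxa6.

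The identity of the tissues was clear in the markers. Myh4, a fast skeletal myosin, ranged from 4190.3 to 5855 TPM in TA and reached at most 10.2 TPM in heart, in 1 D+Q heart (replicate 2), and Myh6, the adult cardiac myosin of the mouse, ranged from 4002 to 5741 TPM in heart and reached at most 1.89 TPM in TA. One library went against its label: all 3 D+Q hearts had Xist between 47.2 and 59.5 TPM and the Y-linked Ddx3y at no more than 0.172 TPM, although replicate 3 is labelled male. The other 14 mice matched their labelled sex. All 4 D+Q TA mice were male, whereas vehicle TA held 2 males (replicates 1 and 3) and 2 females. The vehicle hearts also carried atrial muscle transcripts that were far lower in the D+Q hearts, with values beside the heart results. TPM keeps no sequencing depth, so the precision of each value rests on the spread between mice.

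In vehicle-treated TA, Anxa2 had the highest mean level of the 9 genes, at 95.4 ± 19.0 TPM (SD, n = 4), and Anxa4 the lowest, at 28.4 ± 4.71 TPM. Anxa6 (88.5 ± 14.8 TPM), Trim72 (85.1 ± 18.3 TPM) and Anxa11 (82.8 ± 15.02 TPM) followed Anxa2, then Anxa5 (73.4 ± 4.46 TPM), Anxa1 (59.1 ± 20.2 TPM), Anxa7 (44.6 ± 14.1 TPM) and Dysf (29.3 ± 4.14 TPM). The ranges of all neighbours in this order overlapped. In vehicle hearts Trim72 stood first and apart, at 102 ± 8.79 TPM against 52.2 ± 4.95 TPM for Anxa5, the next gene, whose range it did not touch. Anxa6 (48.9 ± 1.81 TPM) and Anxa2 (45.1 ± 5.02 TPM) overlapped Anxa5 or each other, and a gap separated Anxa2 from Anxa11 (31.6 ± 2.96 TPM). Below it Anxa7 (27.5 ± 2.02 TPM), Dysf (25.1 ± 2.32 TPM), Anxa1 (19.5 ± 3.69 TPM) and Anxa4 (14.5 ± 2.41 TPM) overlapped from neighbour to neighbour. In D+Q TA the order began with Anxa2 (99.8 ± 31.9 TPM) and Anxa11 (87.0 ± 11.4 TPM), and only Anxa7 (53.3 ± 5.92 TPM) and Dysf (29.9 ± 6.46 TPM) were neighbours whose ranges did not overlap. In D+Q hearts (n = 3) Trim72 (105 ± 1.78 TPM) again stood apart from Anxa5 (54.5 ± 2.08 TPM), and Anxa4 (13.1 ± 2.07 TPM) was again lowest.

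**Figure D1:**
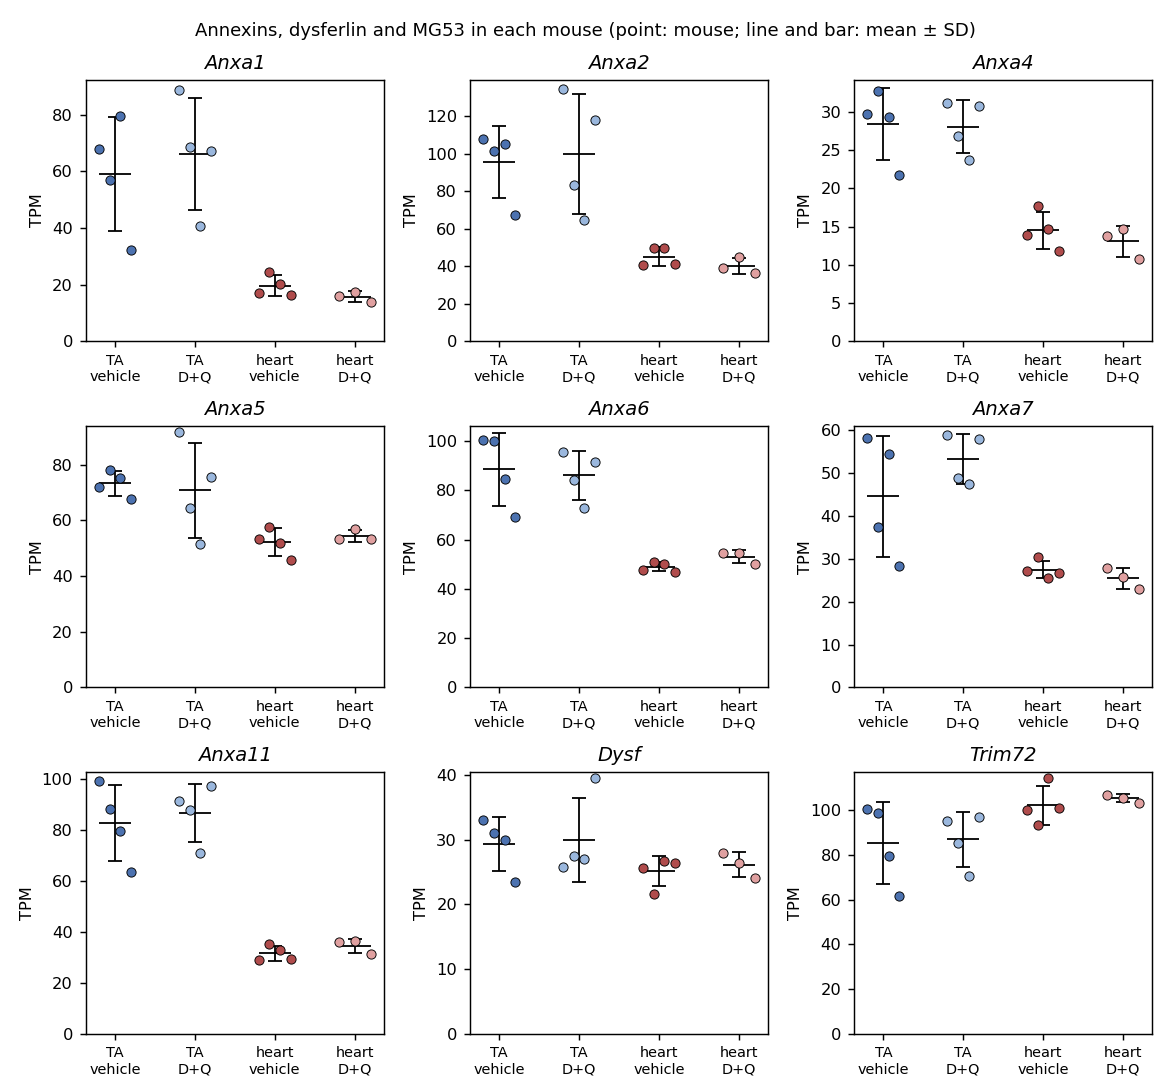
Level of each of the 9 genes in TPM (y axis) in each mouse of the 4 groups (x axis), 1 point per mouse, with the mean as a line and the SD as a bar. Anxa1, Anxa2, Anxa4, Anxa6 and Anxa11 lie higher in all TA mice than in all hearts, Dysf overlaps across the 4 groups, and Trim72 is the gene with higher means in heart.

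Most annexins were higher in TA than in heart of vehicle-treated mice, while dysferlin and MG53 were not called. With limma across all 15 mice, 6 of the 9 genes were called higher in TA (Anxa1, Anxa11, Anxa2, Anxa4, Anxa6 and Anxa7) and 0 lower. A call required an adjusted p (Benjamini-Hochberg over all genes) below 0.05 together with a log2 difference beyond 0.5 in either direction. Of the 14914 genes tested, 33.7% were called in either direction and 22.3% were called higher in TA. Over all genes the log2 fold change had a median of 0.17, and over the 9 genes one of 0.83. The 6 called genes exceeded the median of all genes by 0.46 to 1.34 on the log2 scale. The balance of calls over all genes, 3324 higher and 1709 lower in TA, changed with the scaling and became 2272 and 2430 with median-of-ratios factors. TA and heart also differed in age and length of treatment, so tissue, age and duration cannot be told apart here.

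The vehicle TA of replicates 1 to 4 had Anxa1 levels of 68.0, 56.9, 79.4 and 32.1 TPM, and the vehicle hearts had 16.9, 24.5, 20.3 and 16.5 TPM. The lowest TA value lay above the highest heart value, although the TA mice spread widely. The log2 fold change was 1.52 (SE 0.27, adjusted p = 0.000359), or 2.86-fold, the largest among the 9 genes. Anxa11 measured 99.3, 88.5, 79.7 and 63.8 TPM across vehicle TA, compared with 29.0, 35.3, 32.8 and 29.4 TPM across vehicle hearts. The groups lay far apart, with a log2 fold change of 1.36 (SE 0.14, adjusted p = 1.83e-06). Anxa2 measured 108, 101, 105 and 67.1 TPM across vehicle TA, compared with 40.4, 49.4, 49.4 and 41.2 TPM across vehicle hearts. Here too no TA mouse reached down to the hearts, and the log2 fold change was 1.05 (SE 0.21, adjusted p = 0.00102).

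Anxa6, the dystrophy modifier, measured 100.4, 99.9, 84.7 and 69.2 TPM across vehicle TA, compared with 47.8, 50.9, 49.95 and 47.1 TPM across vehicle hearts. The hearts varied little, with a coefficient of variation of 3.69% against 16.8% in TA, and the log2 fold change was 0.83 (SE 0.12, adjusted p = 6.36e-05). Anxa4 ranged from 21.7 to 32.7 TPM in TA and from 11.9 to 17.6 TPM in heart, with a log2 fold change of 0.94 (SE 0.15, adjusted p = 0.000146). Anxa7 measured 58.1, 37.4, 54.5 and 28.3 TPM across vehicle TA, compared with 27.1, 30.3, 25.6 and 26.8 TPM across vehicle hearts. The groups overlapped through TA replicate 4, and the log2 fold change was 0.63 (SE 0.17, adjusted p = 0.00872), falling to 0.45 and below the fold threshold when TPM was rescaled by median-of-ratios factors.

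Anxa5 ranged from 67.8 to 78.2 TPM in vehicle TA and from 45.7 to 57.7 TPM in vehicle hearts. The groups did not overlap and the adjusted p was 0.0115 by limma, but the log2 fold change of 0.49 (SE 0.14) was under the threshold and the gene was not called. Without TA vehicle replicate 4, heart vehicle replicate 1 or heart vehicle replicate 2 it was called, at 0.54, 0.52 and 0.54. Dysf measured 33.0, 31.0, 29.9 and 23.4 TPM across vehicle TA, compared with 25.7, 21.7, 26.7 and 26.4 TPM across vehicle hearts. These values overlapped, and the log2 fold change of 0.21 (95% confidence interval -0.09 to 0.52) was close to the median of all genes. Trim72 measured 100.5, 98.7, 79.6 and 61.7 TPM across vehicle TA, compared with 99.8, 93.3, 114 and 101 TPM across vehicle hearts. Its log2 fold change was -0.28 (95% confidence interval -0.60 to 0.03, adjusted p = 0.136), the one negative value among the 9 genes. Values that do not overlap, with TA higher, were found for 6 of the 9 genes against 26.4% of all genes, and with TA lower for 0 against 12.7%.

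In the D+Q-treated mice Anxa1, Anxa2, Anxa4, Anxa6, Anxa7 and Anxa11 were called higher in TA as well, in a fit that shares its estimate of spread with the vehicle comparison. By expression all 4 D+Q TA were male and all 3 D+Q hearts female, so within these mice sex and tissue cannot be told apart. Anxa1 measured 88.6, 68.5, 40.6 and 67.1 TPM across D+Q TA, compared with 16.0, 17.5 and 13.9 TPM across D+Q hearts, a log2 fold change of 1.94 (SE 0.33, adjusted p = 0.000333). Its groups were again apart. Anxa11 (1.34, SE 0.17), Anxa2 (1.27, SE 0.26), Anxa4 (1.19, SE 0.18), Anxa7 (0.90, SE 0.21) and Anxa6 (0.69, SE 0.15) had adjusted p-values from 2.31e-05 to 0.00416 by limma. Of all genes, 32.4% were called in either direction and 21.3% were called higher in TA, with 3176 higher and 1656 lower, or 2330 and 2488 with median-of-ratios factors. Without the D+Q heart whose sex label disagreed with its expression (replicate 3), 5 genes were called and Anxa7 was not (0.61, adjusted p = 0.108). Anxa5 was not called at 0.38 (SE 0.17), though it was without TA D+Q replicate 3 (0.53). Dysf stood at 0.12 (95% confidence interval -0.25 to 0.49), a sign that turned to -0.07 with median-of-ratios scaling. Trim72 measured 94.95, 85.1, 70.4 and 97.0 TPM across D+Q TA, compared with 107, 106 and 103 TPM across D+Q hearts. No TA mouse reached the hearts, yet the log2 fold change of -0.32 (SE 0.18, adjusted p = 0.185) was not called, whereas rescaling by median-of-ratios factors gave a call at -0.51. Non-overlapping values with TA higher were found for 6 of the 9 genes against 27.3% of all genes, and with TA lower for 1, Trim72, against 18.4%.

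**Figure D2:**
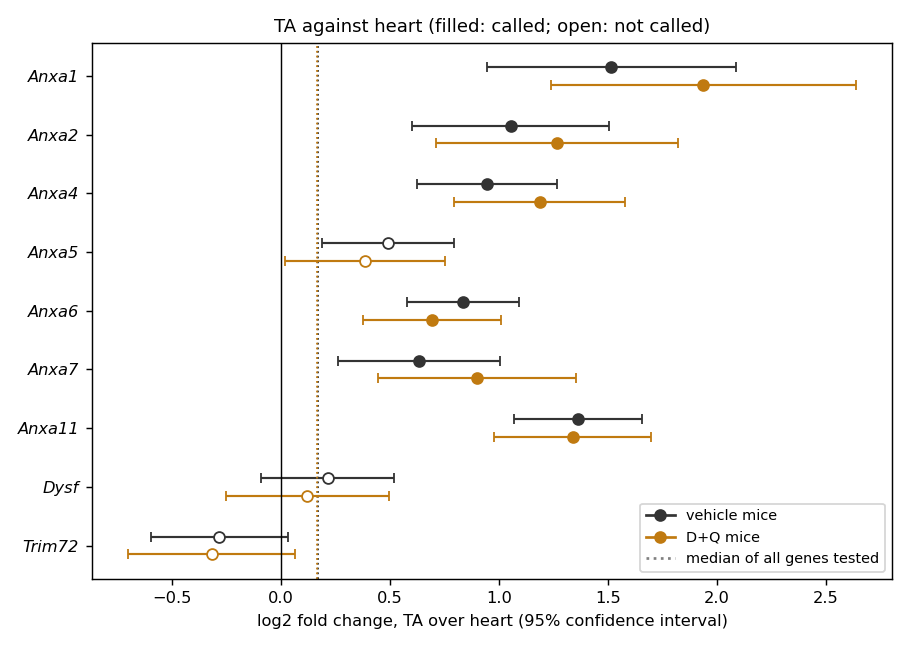
Log2 fold change of TA over heart (x axis) with its 95% confidence interval for each gene (y axis), in vehicle mice (black) and D+Q mice (orange), filled where called, with the median of all genes as dotted lines. Anxa1, Anxa2, Anxa4, Anxa6, Anxa7 and Anxa11 are called in both, Anxa5 and Dysf lie between 0.12 and 0.49, and Trim72 lies at -0.28 and -0.32.

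The shares of single annexins in their summed level are given as a description, without a test. The 7 annexins summed to 472 ± 83.2 TPM in vehicle TA and 239 ± 20.6 TPM in vehicle hearts. Anxa5 made up 20.9% to 23.4% of this sum in vehicle hearts and 13.5% to 19.4% in vehicle TA, ranges that did not overlap. Anxa11 made up 12.7% to 13.5% in vehicle hearts and 15.7% to 18.5% in vehicle TA. Anxa1 made up 8.11% ± 0.822 in vehicle hearts and 12.3% ± 2.68 in vehicle TA, with ranges that just touched. Anxa2 (18.8% and 20.1%), Anxa4 (6.03% in both) and Anxa6 (20.5% and 18.8%) had ranges that overlapped between vehicle heart and vehicle TA. Anxa7 made up 10.5% to 12.3% in vehicle hearts and 7.55% to 10.8% in vehicle TA, a larger mean share in heart (11.5%) than in TA (9.30%).

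Markers of other cells also differed between the tissues. Of all genes tested in vehicle mice, 22.3% were called higher in TA and 11.5% lower. The 8 macrophage markers summed to 337 to 601 TPM in vehicle TA and to 207 to 329.9 TPM in vehicle hearts, with 5 of 8 called higher in TA. The 6 fibroblast markers summed to 1201 to 1672 TPM in vehicle TA and to 552 to 771 TPM in vehicle hearts, with 2 of 6 called higher. Col1a1 (means of 331 and 29.0 TPM) and Col3a1 (496 and 76.7 TPM) differed most. Dcn (494 and 441 TPM), Pdgfra, Lum and Pdgfrb differed less. The 5 endothelial markers went the other way, at 132 to 188 TPM in vehicle TA and 190.3 to 213 TPM in vehicle hearts, with 2 of 5 called lower in TA. The 5 red cell markers were all called lower in TA, at 14.9 to 52.4 TPM against 346 to 1231 TPM. The 5 regenerating muscle markers summed to 92.6 to 136 TPM in vehicle TA and to at most 0.116 TPM in vehicle hearts. Of the 3 smooth muscle markers 2 were called higher in TA and 1 lower. The part of these cells in the annexin levels was not tested.

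The other genes of membrane repair were followed as a list of 34, of which 30 passed the filter in both tissues. In vehicle mice 15 were called higher in TA and 2 lower, with a median log2 fold change of 0.50, beside 0.17 for all genes. Of all genes tested, 22.3% were called higher in TA and 11.5% lower. The largest differences were in Ano5, a scramblase-family membrane protein mutated in limb-girdle dystrophy, Capn3, a muscle calpain, and Bin1, which shapes T-tubules. Ano5 was at 47.9 to 68.7 TPM in vehicle TA and at 0.323 to 1.14 TPM in vehicle hearts, a log2 fold change of 5.35 (SE 0.20). Capn3 (5.26, SE 0.13) and Bin1 (5.16, SE 0.13) were of the same size. The genes called lower in TA were Syt7, a calcium sensor of lysosome exocytosis, at -2.74 (SE 0.15), and Smpd1, the acid sphingomyelinase, at -1.02 (SE 0.15). Of the 4 S100 partners of annexins 3 were called higher, of the 4 calpains 3, of the 8 tested ferlin relatives and dysferlin partners 5, of the 6 ESCRT and ALG-2 genes 2, and of the 6 exocytosis genes 1 higher and 2 lower.

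**Figure D3:**
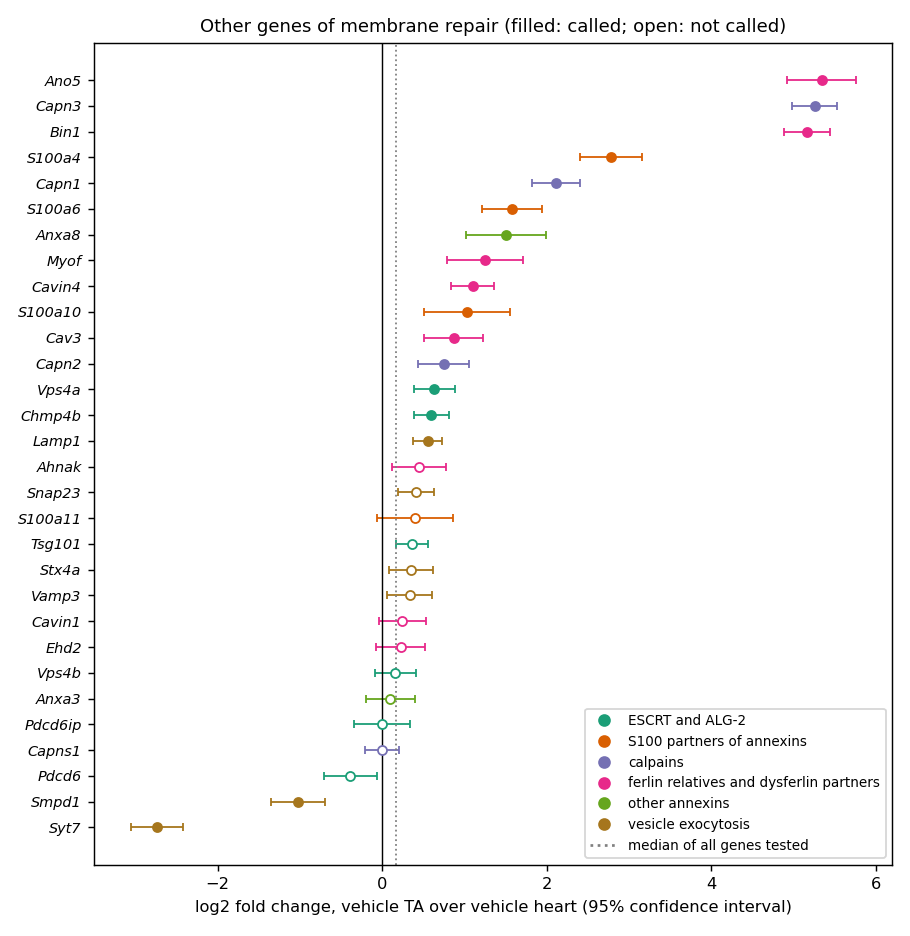
Log2 fold change of vehicle TA over vehicle heart (x axis) with its 95% confidence interval for the 30 other repair genes tested (y axis), coloured by list and filled where called, with the median of all genes as a dotted line. Ano5, Capn3 and Bin1 stand apart above 5, and Syt7 and Smpd1 are the genes called lower in TA.

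The effect of D+Q on TA was examined next, in a limma model with 1 surrogate variable. None of the 9 genes was called, and 0% of the 16298 genes tested were called, while 488 genes had an unadjusted p under 0.05 and none of these was a member. The paper, with a count test on reads, did report genes changed by D+Q in TA and in heart. That test was not run here, so a gene without a call is not shown to be unchanged. Anxa1 measured 88.6, 68.5, 40.6 and 67.1 TPM in the D+Q mice, compared with 68.0, 56.9, 79.4 and 32.1 TPM in the vehicle mice. Anxa2 measured 134, 83.0, 64.3 and 118 TPM in the D+Q mice, compared with 108, 101, 105 and 67.1 TPM in the vehicle mice. In both genes the groups overlapped widely. The log2 fold changes were -0.01 (95% confidence interval -0.46 to 0.43) for Anxa1 and -0.14 (-0.47 to 0.20) for Anxa2, and without the surrogate variable the signs turned, to 0.18 and 0.03.

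Anxa6 was at 95.7, 84.3, 72.9 and 91.6 TPM after D+Q, within the span of the vehicle mice, and its log2 fold change was -0.09 (95% confidence interval -0.40 to 0.23). Anxa7, the gene with the largest positive value, was at 58.8, 48.9, 47.4 and 57.9 TPM after D+Q, against 44.6 ± 14.1 TPM after vehicle. The vehicle males (replicates 1 and 3) were at 58.1 and 54.5 TPM and the vehicle females at 37.4 and 28.3 TPM, while all D+Q TA were male. The log2 fold change of Anxa7 was 0.21 (95% confidence interval -0.22 to 0.63), and with labelled sex in place of the surrogate variable it was -0.09. Anxa5 had the smallest unadjusted p by limma, 0.147, at -0.19 (95% confidence interval -0.45 to 0.08). Anxa4 (-0.07), Anxa11 (0.03), Dysf (-0.003) and Trim72 (-0.02) lay close to 0, and all 9 adjusted p-values were 0.999. The upper ends of the widest intervals were 0.43 for Anxa1 and 0.63 for Anxa7. Over the 9 genes the median was -0.02, beside -0.07 for all genes.

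Dysf measured 25.7, 27.5, 27.0 and 39.6 TPM in the D+Q mice, compared with 33.0, 31.0, 29.9 and 23.4 TPM in the vehicle mice. The highest and the lowest of all 8 TA were thus single mice, D+Q replicate 4 and vehicle replicate 4. Trim72 was at 94.95, 85.1, 70.4 and 97.0 TPM after D+Q, inside the vehicle span of 61.7 to 100.5 TPM. Groups that do not overlap were found for 0 of the 9 genes, and for 1.52% of all genes tested in TA. Of the other repair genes, 0 of 30 tested were called, with a median of -0.06. Their smallest unadjusted p-values by limma were 0.0292 for Snap23, a membrane-fusion SNARE, at -0.34, 0.0800 for S100a6, at -0.26, 0.108 for Ehd2, a caveola ATPase, at -0.31, and 0.196 for S100a11, at -0.17.

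In heart, D+Q and vehicle mice were compared with labelled sex in the model. None of the 9 genes was called, where 0.316% of the 16132 genes tested were. Anxa1 measured 16.0, 17.5 and 13.9 TPM in the D+Q mice, compared with 16.9, 24.5, 20.3 and 16.5 TPM in the vehicle mice. The groups overlapped through D+Q replicate 2, and the log2 fold change was -0.34 (SE 0.09), with an unadjusted p of 0.00503 and an adjusted p of 0.125 by limma. Anxa2 measured 39.1, 44.9 and 36.2 TPM in the D+Q mice, compared with 40.4, 49.4, 49.4 and 41.2 TPM in the vehicle mice. It too overlapped, at -0.21 (SE 0.06, unadjusted p = 0.0140, adjusted p = 0.170). These were the 2 members with an unadjusted p under 0.05, which 17.6% of all genes tested in heart (2846) also had.

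Anxa6 measured 54.8, 54.4 and 50.045 TPM in the D+Q mice, compared with 47.8, 50.9, 49.95 and 47.1 TPM in the vehicle mice. The groups overlapped, and its log2 fold change was 0.10 (95% confidence interval -0.02 to 0.21). Anxa4 (-0.20, interval -0.42 to 0.02) and Anxa7 (-0.13, interval -0.32 to 0.06) were negative, and Anxa5 (0.05, interval -0.13 to 0.23), Anxa11 (0.10, interval -0.04 to 0.23), Dysf (0.06, interval -0.17 to 0.29) and Trim72 (0.04, interval -0.13 to 0.22) were positive without a call. Trim72 was at 107, 106 and 103 TPM after D+Q, inside the vehicle span of 93.3 to 114 TPM, and Dysf at 28.0, 26.4 and 24.1 TPM against 25.7, 21.7, 26.7 and 26.4 TPM after vehicle. Groups that do not overlap were found for 0 of the 9 genes, and for 15.2% of all genes tested in heart. Leaving out D+Q replicate 3, the heart with the discordant sex label, gave -0.40 for Anxa1 and -0.24 for Anxa2, and sex read from expression gave -0.49 and -0.30, again without a call. Without a covariate Anxa1 was -0.29 and Anxa2 -0.17, with unadjusted p of 0.0797 and 0.152 by limma, so both then exceeded 0.05.

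Transcripts of other tissue moved with the heart groups. The 4 atrial muscle markers summed to 862 to 4260.4 TPM in vehicle hearts and to 382 to 427 TPM in D+Q hearts, with Myl7 at 94.1 to 730.1 TPM against 3.46 to 4.54 TPM, and 3 of the 4 were called lower. The 5 red cell markers summed to 346 to 1231 TPM against 26.8 to 122 TPM, with 0 of 5 called, and the 6 fibroblast markers to 552 to 771 TPM against 445 to 519 TPM, with 0 of 6 called. The 8 macrophage markers summed to 207 to 329.9 TPM against 180 to 277 TPM, with 7 lower in the fit and 0 called. All 3 smooth muscle markers were lower, 2 without overlap and 0 called. Of the 5 endothelial markers 2 were higher and 3 lower, with 0 called. Of the 7 hearts, vehicle replicate 2 had the highest atrial, red cell, fibroblast, macrophage, smooth muscle and endothelial sums and the highest median-of-ratios factor (1.04). It also had the highest Anxa1, Anxa4, Anxa5 and Anxa7 of the 7. The 6 cardiac muscle markers moved the other way, at 25802 to 27316 TPM in D+Q hearts against 20767 to 22789.9 TPM in vehicle hearts, with all 6 higher, 5 without overlap and 0 called. A score of the atrial markers was nearly collinear with D+Q over the 7 hearts (r = -0.949), so atrial transcript level and treatment cannot be told apart here. A fit with that score in place of sex turned the signs of Anxa1, Anxa2, Anxa4 and Anxa7, but it barely separates the score from the treatment and nothing is read from it. The part of blood and of the other marked cells in the values of these genes was not tested.

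Of the 34 other repair genes 31 were tested in heart and 0 were called, while 10 had an unadjusted p under 0.05 by limma, beside 17.6% of all genes tested in heart. Groups that do not overlap were found for 9 of the 31 (6 higher and 3 lower with D+Q), beside 15.2% of all genes. The 4 smallest were those of Myof (myoferlin, a ferlin close to dysferlin), S100a4, Syt7 and Cav3 (the muscle caveolin, a dysferlin partner). Myof measured 4.37, 4.16 and 2.57 TPM in the D+Q mice, compared with 4.58, 6.76, 5.56 and 4.39 TPM in the vehicle mice, so all D+Q hearts lay below, at -0.57 (SE 0.11, adjusted p = 0.0934). S100a4 was at 8.05, 8.02 and 6.11 TPM after D+Q against 10.7 to 18.6 TPM after vehicle, at -0.87 (SE 0.17, adjusted p = 0.0980). Syt7 was at 16.3, 14.2 and 14.6 TPM against 9.97 to 12.2 TPM, at 0.44 (SE 0.09, adjusted p = 0.0980), and Cav3 at 25.5, 22.5 and 28.1 TPM against 16.6 to 20.0 TPM, at 0.46 (SE 0.09, adjusted p = 0.0999). Without vehicle replicate 3, S100a4 (-1.08, adjusted p = 0.0230) and Cavin4, a caveola protein of muscle (0.60, adjusted p = 0.0369), were called. That fit called 136 of the 15870 genes tested, against 51 of 16132 in the main fit. In the main fit Syt7 and Cav3 lay under the fold threshold as well. Of these genes Cav3, Cavin4 and Syt7 were higher in the D+Q hearts, as the cardiac muscle markers were, and the part of muscle content and blood in these values was not tested.

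**Figure D4:**
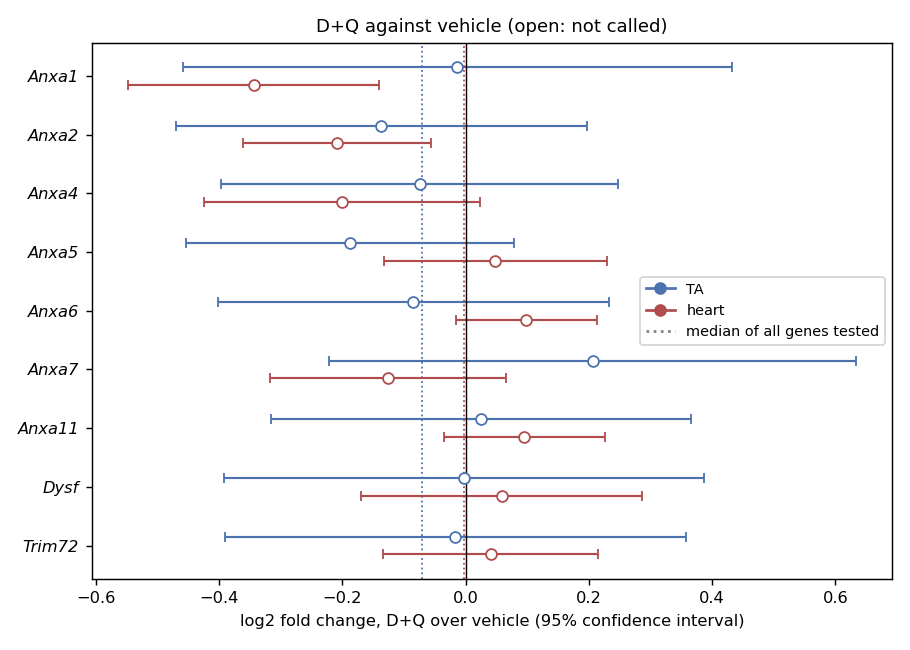
Log2 fold change of D+Q over vehicle (x axis) with its 95% confidence interval for each gene (y axis), in TA (blue) and heart (red), all open because none was called, with the median of all genes as dotted lines. In TA every interval holds 0, and in heart, with labelled sex in the model, those of Anxa1 (-0.55 to -0.14) and Anxa2 (-0.36 to -0.06) do not.

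The difference of the D+Q effect between TA and heart was then tested as an interaction over the 15 mice. No member was called, with all adjusted p-values at 1.000, and 0.0268% of the 14914 genes were. Anxa1 had the largest difference, 0.42 (95% confidence interval -0.48 to 1.33), and Anxa11 the one closest to 0, -0.02 (-0.49 to 0.44). The unadjusted p-values of the 9 genes in limma began at 0.321, and 536 of all genes tested had one under 0.05. All 9 intervals held 0.

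The 9 genes did vary from mouse to mouse, and mostly together. TA vehicle replicate 4 lay below its group mean in all 9 genes, with a median deviation of -0.36 on the log2 scale, and so did TA D+Q replicate 3, at -0.28. TA D+Q replicate 4 lay above in all 9. Among hearts, D+Q replicate 3 lay below in 9 of 9 and D+Q replicate 2 above in 9 of 9, with smaller medians of -0.13 and 0.06. The macrophage markers were low in TA vehicle replicate 4 (337 TPM) and TA D+Q replicate 3 (409 TPM). The other 6 TA were at 509.6 to 745 TPM, with the highest in D+Q replicate 2, which lay below its group mean in 7 genes. Endothelial markers were also lowest of their groups in TA vehicle replicate 4 (132 TPM) and TA D+Q replicate 3 (102 TPM). So were red cell markers (14.9 and 23.9 TPM). The scale of the whole library also differed between mice. The median-of-ratios factor, high where most genes have a high TPM, was lowest among the TA in D+Q replicate 3 (0.912) and vehicle replicate 4 (0.9498), against 1.01 to 1.27 in the other 6. TA D+Q replicate 4 had the highest factor of its group (1.101). Among the hearts D+Q replicate 3 (0.886) was lowest, with vehicle replicates 4 (0.888) and 1 (0.891) close to it. Heart D+Q replicate 2 (0.965) lay under heart D+Q replicate 1 (0.985). Fibroblast markers were mixed, at 1549 TPM in TA vehicle replicate 4, the second highest of the 8 TA. In TA D+Q replicate 3 they were at 1057 TPM, the second lowest. Skeletal muscle markers were lowest of the 8 TA in TA vehicle replicate 4 (39161 TPM). Regenerating muscle markers were highest of its group in that mouse (136 TPM). TA D+Q replicate 3, at 44734 and 111 TPM, lay inside the span of its group in both. The part of these cells, of muscle content and of library scale in the spread of the 9 genes was not tested.

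**Figure D5:**
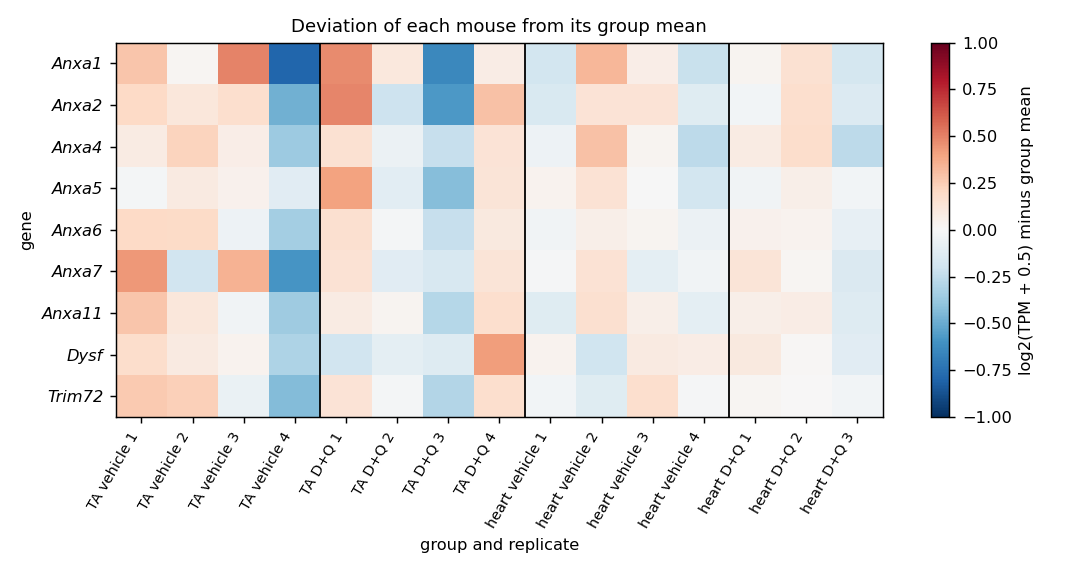
Deviation of each mouse from its group mean in log2(TPM + 0.5) (colour) for each gene (rows) and mouse (columns), with lines between the groups. TA vehicle 4 and TA D+Q 3 are below their group mean in all 9 genes, and in TA D+Q 1 and heart vehicle 2 Dysf lies below its group mean while all 7 annexins lie above theirs. In heart vehicle 2 Trim72 also lies below its group mean.

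Across the 15 libraries, after centring on the group means, Pearson's r between pairs of the 7 annexins ranged from 0.381 (Anxa5 with Anxa7) to 0.938 (Anxa6 with Anxa11), with a median of 0.801 over 21 pairs. Trim72 followed the annexins as well, from 0.517 with Anxa5 to 0.924 with Anxa6. Dysf followed least, from 0.0830 with Anxa5 to 0.685 with Trim72. These are descriptions of 15 libraries that share 1 TPM scale, and TA mice supplied 52.5% (Anxa4) to 93.7% (Anxa6) of the centred sum of squares. No r over all genes was set beside these values, so the shared spread is not shown to be particular to the 9 genes. Among all 14914 genes, those most like each member by this measure were Gna13 (r = 0.975), Vcl and Capn2 for Anxa2, Upf1 (r = 0.981), Mgrn1 and Pea15a for Anxa6, and Timm8a1 (r = 0.962), Mfge8 and Cotl1 for Anxa1. Capn2, a calpain of the repair list, was the one repair gene among them. For Anxa11 they were Foxk1 (r = 0.971), Ddx56 and Elmo2, for Anxa5 Plat (r = 0.969), Skap2 and Abi1, for Anxa4 Daxx (r = 0.955), Lgals8 and Copb2, and for Anxa7 Prpf31 (r = 0.935), Moap1 and Ccl21a. Trim72 had Cluh (r = 0.962), Znrf1 and Bcam, and Dysf had Fam53a (r = 0.890), Cacybp and Zdhhc17, with the lowest leading value of the 9.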

How the data were processed

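Bulk mRNA of 8 TA and 7 hearts, 1 library per mouse, was analysed from 1 table. The authors trimmed the paired reads with Trim Galore 0.6.10, quantified them with Salmon 1.10.3 on GRCm39, collapsed transcripts to genes (tximport) and deposited TPM of 56980 Ensembl genes, which keep no depth. Symbols came from GENCODE M39, where 56236 identifiers were found. Groups and sexes follow the labels.

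A gene was kept in a tissue where 3 or more mice reached 0.5 TPM, and log2(TPM + 0.5) was fitted with limma 3.58.1 in R 4.3.3 (lmFit, eBayes with trend). The added 0.5 understates log2 changes of low genes. The TA model held 1 surrogate variable (5 rounds of re-weighting, written out for TPM), and the heart model and the model of all 15 mice held labelled sex. The study's count test was not run on TPM. p-values were adjusted by Benjamini-Hochberg over all genes tested. The p-values measure the spread between these mice. The code was tested on simulated data.

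The 9 genes and the lists were chosen with earlier results of these data known. All 9 were named, and of the 34 other repair genes the 4 with the smallest p in each treatment comparison, the 3 largest calls per direction between vehicle tissues and the 3 genes most like each member. Cavin4 and the genes added in the closing section were named after their values were seen. Alternatives were pseudocounts of 0.1 and 1, other filters, median-of-ratios scaling, no trend, no minimum fold, other covariates, the replicate number as a block and each mouse left out.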

Additional observations from a re-analysis of the deposited data

Results flagged for a closer look

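A single mouse stood far from the other 3 of its group in 2 of the 27 groups of 4 mice examined (9 genes in 3 groups), and chance alone flags about 1 in 20. Anxa2 in TA vehicle replicate 4 was at 67.1 TPM, and the nearest of the other vehicle TA was at 101 TPM. Dysf in TA D+Q replicate 4 was at 39.6 TPM, and the nearest of the other D+Q TA was at 27.5 TPM. Without these mice the log2 fold change of D+Q over vehicle in TA was -0.22 for Anxa2 and -0.12 for Dysf, and neither was called.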

How the results depend on the processing

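The 6 genes called between TA and heart had the same direction under all alternatives run and with each mouse left out. Among them only Anxa7 lost its call, at 0.45 in vehicle mice with median-of-ratios scaling and at 0.61 in D+Q mice without heart D+Q replicate 3. Anxa5 gained one with mice left out, up to 0.54 in vehicle mice and 0.53 in D+Q mice. In the same fits Dysf in D+Q mice turned to -0.070 with median-of-ratios scaling and ranged from -0.047 to 0.18 with mice left out. In no alternative was a member called for D+Q in TA, in heart or for the difference between them. The cause of the changes below was not tested.

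For D+Q in TA, signs near 0 turned. Without the filter on low values Dysf was 0.00097. Rescaling by median-of-ratios factors moved the median of all genes from -0.072 to 0.0026 and gave Anxa1 0.039, Anxa4 0.0019, Dysf 0.084 and Trim72 0.067. Without a covariate Anxa1 was 0.18, Anxa2 0.032, Dysf 0.018 and Trim72 0.045, and with labelled sex Anxa7 was -0.085 and Anxa11 -0.042. With mice left out, Anxa1 ranged from -0.17 to 0.089, Anxa4 from -0.16 to 0.0067, Anxa7 from -0.049 to 0.35, Anxa11 from -0.058 to 0.12, Dysf from -0.12 to 0.084 and Trim72 from -0.12 to 0.073. The count of all genes called ranged from 0 to 2.

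For D+Q in heart, the count of all genes called, 51, fell to 0 without the filter, 13 without the trend, 25 with sex read from expression and 0 with the atrial score, and ranged from 0 without vehicle replicate 2 to 136 without vehicle replicate 3. That of other repair genes ranged from 0 to 2. With sex from expression Anxa5 was -0.0068. The atrial score was nearly collinear with D+Q (r = -0.949 over 7 hearts), so its fit barely identifies the treatment term. It moved the median of all genes from -0.0025 to 0.36, and with it Anxa1 was 0.69, Anxa2 0.47, Anxa4 0.59, Anxa7 0.14 and Dysf -0.21. With mice left out Dysf ranged from -0.043 to 0.17 and Trim72 from -0.032 to 0.11. For the difference between tissues, all genes called, 4, became 7 with median-of-ratios scaling and ranged from 2 to 7 with mice left out, while Anxa5 ranged from -0.24 to 0.035, Anxa7 from -0.027 to 0.45, Anxa11 from -0.13 to 0.15 and Trim72 from -0.14 to 0.10.

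Replicate numbers name different animals. Deviations of same-numbered mice correlated at -0.12 on average in TA (4 pairs) and 0.0035 in heart (3 pairs), against 0.041 and -0.0012 for other pairs. No likeness by number was seen in these few pairs, and shared handling by number was not tested. With the replicate block all genes called for D+Q in heart were 4 and for the difference between tissues 0. In TA the block gave the values of the fit without a covariate, 0.18 for Anxa1, 0.032 for Anxa2, 0.018 for Dysf and 0.045 for Trim72, and Trim72 in the difference was 0.029. No call of a member changed. TPM keeps no depth, so no counting error could be set beside these values.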

Other observations

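Of the 5 other annexins in the list, Anxa3 had the highest levels. It was at 12.8 to 20.5 TPM in vehicle TA and at 14.5 to 19.0 TPM in vehicle hearts, a log2 fold change of 0.10 (SE 0.14). Anxa8 was at 2.90 to 4.25 TPM in vehicle TA and at 0.539 to 1.54 TPM in vehicle hearts, and was called higher in TA at 1.51 (SE 0.23, adjusted p = 9.62e-05 by limma). Anxa9 reached at most 0.637 TPM, in a vehicle heart, Anxa10 was listed at 0 in all TA mice, and Anxa13 reached at most 0.311 TPM, in a D+Q heart. In both tissues the annexins above 5 TPM were thus 8, namely the 7 described here and Anxa3.

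The S100 proteins that bind annexins were mostly higher in TA too. S100a4 (2.78, SE 0.18), S100a6 (1.58, SE 0.17) and S100a10, the partner of Anxa2 (1.03, SE 0.24), were called higher in TA by limma, and S100a11 (0.40) was not.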
